A study of Sus scrofa with 44 samples.

Results

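The 42 genes described here carry out the cell cycle and DNA replication, and were listed by their symbols. They were followed in the longissimus dorsi, the long back muscle, of pig fetuses. Of the 42, 36 were found under their symbol among the 22427 Ensembl pig genes of the expression files. Another 3, RRM2, AURKA and MKI67, were placed by position on gene identifiers without a symbol, most of whose m6A peaks lie inside the RefSeq gene. This placing was chosen after the data had been seen, so counts below are over the 36 and these 3 are given apart. PCNA, CCNA2 and CDC25C were not matched and their expression was not analysed here.

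The series used MeRIP-seq, in which RNA fragments bound by an antibody against N6-methyladenosine (m6A), a common mark on messenger RNA, are sequenced beside the input RNA. Fetuses were taken at 6 ages, 33, 40, 50, 60, 70 and 95 days post coitus, called E33 to E95 here. Each age has 3 input and 3 immunoprecipitated libraries of rRNA-depleted muscle RNA. PK15, a line of pig kidney cells, was profiled from polyA RNA and from rRNA-depleted RNA, with 2 input and 2 immunoprecipitated libraries each. The labels give no treatment, genotype, breed, litter or sex, and do not say whether a library is 1 fetus or a pool. P-values therefore measure the spread between these libraries, which may be technical.

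Dividing cells make these genes in waves. E2F factors switch on licensing and replication genes before S phase, and the MuvB complex with MYBL2 and FOXM1 switches on mitotic genes in G2. Resting cells keep such genes off through the DREAM complex, which is MuvB with an RB-like protein and E2F4. CHR elements bind MuvB, and CCAAT boxes often lie near them. In skeletal muscle, proliferating myoblasts leave the cycle for good when they fuse into fibres, so transcripts of this kind come from the cells that still divide. In bulk tissue, fewer dividing cells and less RNA per cell cannot be told apart.

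The promoters of 4 members are printed because they show the elements by which these genes are usually grouped. They run from 110 bases before the RefSeq transcript start to the base before it (Sscrofa11.1, strand of the gene), and capitals mark the matches described after them. MKI67 is at chr14:137296313-137296422 on the minus strand, CCNB1 at chr16:47338129-47338238 on the plus strand, TOP2A at chr12:22001190-22001299 on the plus strand and MCM6 at chr15:15923528-15923637 on the plus strand.
MKI67: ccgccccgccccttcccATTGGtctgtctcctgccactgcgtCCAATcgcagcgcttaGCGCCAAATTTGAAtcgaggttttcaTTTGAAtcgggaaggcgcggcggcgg
CCNB1: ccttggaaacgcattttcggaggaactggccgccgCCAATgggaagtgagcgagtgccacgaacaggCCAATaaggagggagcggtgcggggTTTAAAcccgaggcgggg
TOP2A: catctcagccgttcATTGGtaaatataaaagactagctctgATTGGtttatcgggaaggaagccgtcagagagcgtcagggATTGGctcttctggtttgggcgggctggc
MCM6: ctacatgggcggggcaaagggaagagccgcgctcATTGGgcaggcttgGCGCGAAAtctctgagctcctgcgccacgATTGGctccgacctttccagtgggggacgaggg

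The promoters were searched on both strands from 250 bases before to 50 after the start. The CCAAT box was searched by those letters, which read ATTGG on the opposite strand. The CHR was searched as TTTGAA and also as the palindrome TTTAAA. E2F sites were searched as TTTCCCGC, TTTCGCGC, TTTGCCGC and TTTGGCGC. A CCAAT box lay in 30 of the 42 member promoters (71.4%), against 35.7% of 20640 coding genes. A CHR lay in 21 (50%), against 23.8%, and both elements in 16 (38.1%), against 9.48%. An E2F site lay in 10 (23.8%), against 3.24%. These 10 were CDT1, MCM3, MCM6, TYMS, CDK1, CDC25C, MAD2L1, MKI67, KIF11 and KIF23. With the bases before the start alone, the CCAAT box was in 50% of members against 31.9% of all genes, the CHR in 35.7% against 21.6%, and E2F sites in 19% against 2.71%. These are matches of letters, with no binding measured. In the printed run of MKI67 an E2F site and a CHR adjoin, and the CHR matches of TOP2A lie outside its printed bases.

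Expression values are TPM, which sum to 1000000 in each library, so depth is unknown. Between 37.4% and 72.4% of a library's TPM went to ENSSSCG00000032395, a gene without a symbol. TPM were therefore divided by median-ratio factors, which ran from 0.301 (E50 replicate 3) and 0.466 (E40 replicate 2) to 2.00 (E33 replicate 2). Those 2 libraries with the lowest factors stand apart, and the factors were lower at E95 (0.568 to 0.862) than at E33 (1.19 to 2.00). Levels below are scaled TPM, and the TPM as deposited give the second reading of each main count. Changes are differences of log2(scaled TPM + 1) between stage means from limma over all 13130 genes with a mean of at least 1, with Benjamini-Hochberg adjustment, and understate the change of genes near 1 TPM.

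Between E33 and E95, 33 of the 36 members fell and 0 rose (1 was higher at an unadjusted p under 0.05). The median change of the members was -1.08 on the log2 scale, where the median of all genes was 0.01. Over all genes tested, 22.6% were called lower and 24.0% higher in this comparison, so the share of members called lower, 91.7%, is far from the background. The members kept a median of 41.5% of their E33 level. All 3 E95 libraries lay below all 3 E33 libraries in 33 members, against 26.8% of all genes. RRM2, AURKA and MKI67 also fell. By the F test over the 6 stages 31 of 36 members were called, against 47.3% of all genes. In TPM as deposited, 34 members were called lower and 0 higher, with a median of -2.07. There the median of all genes was itself -1.02, with 45.8% called lower and 2.64% higher, so the members stood about as far below the rest on either scale. Without E40 replicate 2 and E50 replicate 3, 33 members were again called lower.

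**Figure D1:**
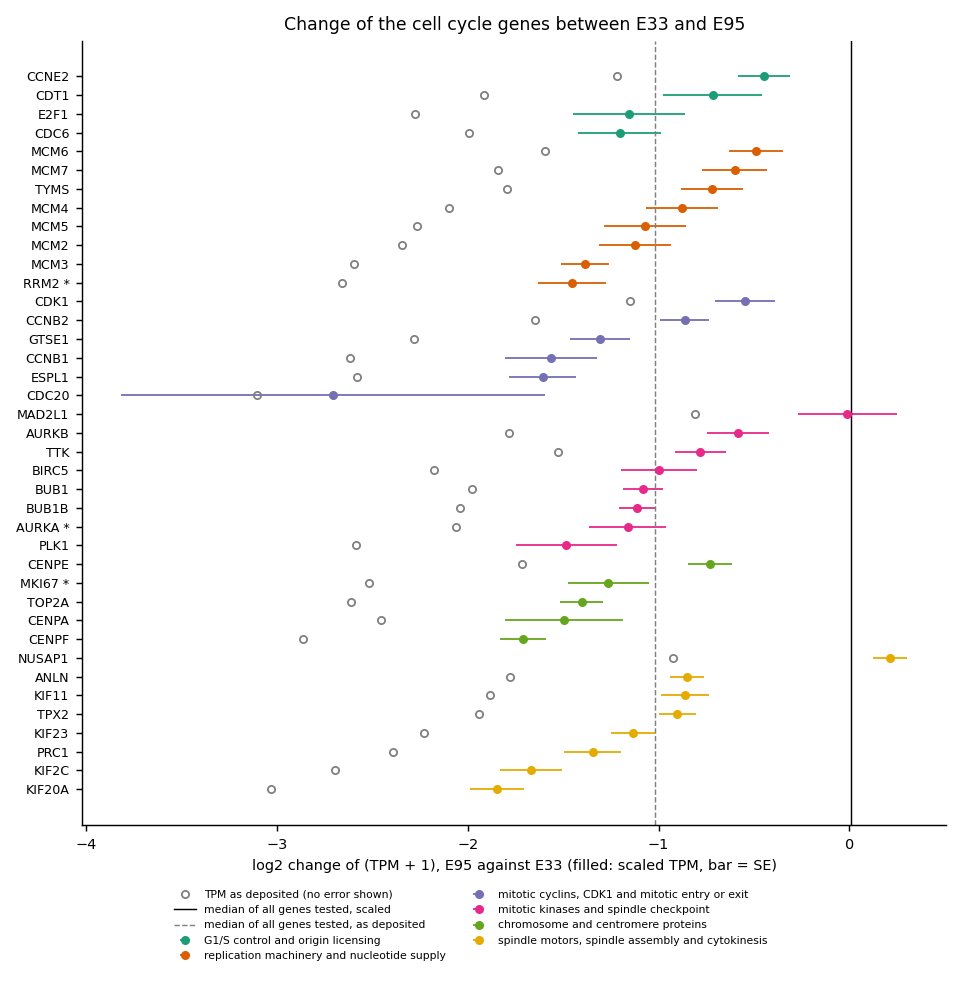
Log2 change of TPM + 1 between E33 and E95 (horizontal axis) for the 39 matched genes, grouped by role. Filled points are scaled TPM with the SE of the fit, open points TPM as deposited, an asterisk marks genes placed by position, and lines mark the medians of all genes tested (0.01 scaled, -1.02 as deposited). All filled points but those of MAD2L1 (-0.01) and NUSAP1 (0.21) lie at -0.45 or below.

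Markers of the cell types in the tissue moved over the same interval, and their part in the fall of the members was not tested. The summed level of 11 muscle fibre genes was 3610 to 4230 scaled TPM in the E33 libraries and 20400 to 29700 in those of E95, and 9 of the 11 rose and 1 fell. The sum of 7 muscle progenitor genes was 316 to 382 at E33 and 302 to 405 at E95, where 3 of the 6 tested fell and 2 rose. The sum of 9 neuronal genes went from 113 to 147 at E33 to between 3.80 and 6.62 at E95, and all 3 tested fell. Endothelial genes (6 of 6 tested rose) went from sums of 25.4 to 33.2 to sums of 91.2 to 104. Sums of 10 erythroid genes were 93.9 to 245 at E33 and 34.1 to 47.8 at E95, with 1 of 6 tested lower and 1 higher. Fibroblast genes (4 of 8 lower, 4 higher) went from 2850 to 3700 to sums of 5730 to 8870. Cartilage genes (2 of 4 lower, 1 higher) went from 134 to 186 to sums of 39.9 to 50.2, and immune genes (0 of 6 lower, 3 higher) from 32.6 to 41.7 to sums of 45.6 to 70.5. No marker of these lists was at 0 in all 18 libraries. For comparison with these counts, 22.6% of all genes tested were called lower and 24.0% higher.

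All 4 members of the group for G1/S control and origin licensing fell, with a median change of -0.94. CDT1, which loads the MCM helicase onto origins with CDC6, had the highest level of the group. The scaled TPM of CDT1 were 23.8, 19.1 and 21.1 at E33, then 14.9, 10.7 and 12.3 at E95. The groups do not overlap, and CDT1 fell by 0.72 ± 0.26 (SE; limma adjusted p = 0.0361). CDT1 at E50 was the least even value of the group, with 23.7, 11.6 and 32.7 in the 3 libraries. Leaving out 1 library of E33 or E95 ended the call of CDT1 in 4 of the 6 cases, those of E33 replicates 1 and 3 and E95 replicates 2 and 3 (adjusted p up to 0.118). CDC6, the partner of CDT1 at origins, had the largest fall of the group, from 3.73, 2.62 and 3.70 at E33 to 1.53, 0.344 and 0.938 at E95. CDC6 fell by 1.20 ± 0.22 (adjusted p = 0.00037), and its highest library was at E40 (5.50, replicate 2). CCNE2, a cyclin E that drives entry into S phase, had the smallest fall. CCNE2 was at 1.78, 2.17 and 1.59 at E33, higher at E50 with 2.71, 2.56 and 2.69, and lower at E95 with 1.48, 0.786 and 1.02. Its fall of 0.45 ± 0.14 (adjusted p = 0.0142) was not called with quantile normalization (adjusted p = 0.0595), with those stages alone in the fit (0.0869), without E33 replicate 2 (0.0651) or without E95 replicate 2 (0.0697). E2F1, the transcription factor that activates many of the other members, fell by 1.16 ± 0.29 (adjusted p = 0.00478).

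All 7 symbol-matched members of the replication group fell, with a median change of -0.88 and a range of -1.39 to -0.49. MCM2 to MCM7 form the ring-shaped helicase that unwinds DNA, and its 6 subunits did not fall by equal amounts. MCM7, the subunit with the highest level, was at 36.6, 46.5 and 44.4 at E33 and at 30.7, 27.1 and 25 at E95. The libraries of MCM7 do not overlap between those stages, and it fell by 0.60 ± 0.17 (adjusted p = 0.00995). MCM3 fell most, from 32.7, 28.0 and 35.6 at E33 through 15.9, 16.6 and 17.7 at E70 to 12.1, 13.4 and 9.56 at E95. The fall of MCM3 was 1.39 ± 0.13 (adjusted p = 5.2e-07), and the E33, E60 and E95 libraries do not overlap one another. MCM6 fell least, with 7.15, 8.46 and 6.62 at E33, 8.33, 8.52 and 8.61 at E40 and 5.39, 5.75 and 3.93 at E95. Its fall of 0.49 ± 0.14 (adjusted p = 0.0112) was not called without E33 replicate 2 (adjusted p = 0.0525) or without E95 replicate 3 (adjusted p = 0.0596). The difference between the falls of the subunits was not tested. MCM2, MCM4 and MCM5 fell by 1.12, 0.88 and 1.07. TYMS, which makes thymidylate, fell by 0.72 ± 0.16 (adjusted p = 0.00216), and its level stayed between stage means of 7.01 and 8.47 until E70 before reaching 3.89 at E95. RRM2, placed by position, is the small subunit of ribonucleotide reductase, which supplies deoxynucleotides. RRM2 was at 27.1, 28.8 and 37.8 at E33 and between 8.20 and 13.2 at E95, a fall of 1.45 ± 0.18 (adjusted p = 1.1e-05).

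In the group of mitotic cyclins, CDK1 and regulators of mitotic entry and exit, 5 of the 6 symbol-matched members fell. CDC20, the activator of the anaphase-promoting complex, was the exception, with the largest change and the least even values. CDC20 was listed at 15.8, 15.5 and 0 for E33, at 13.7, 17.1 and 0 for E40, at 11.2, 7.70 and 14 for E50 and at 6.27, 15.2 and 12.1 for E60. At E70 it was listed at 3.57, 0 and 0, and at 0 in all 3 E95 libraries. CDC20 is thus listed at 0 in 7 of the 18 libraries, and a listed 0 can be a failed estimate. The fitted difference was -2.70 ± 1.11 (adjusted p = 0.0594), and CDC20 was thus not called. It was called lower in 4 alternatives: without E33 replicate 3 (-4.01, adjusted p = 0.00466), as deposited (-3.10, adjusted p = 0.0193), with the 2 most abundant genes taken out before rescaling (-3.76, adjusted p = 0.0458) and with a replicate block (-2.70, adjusted p = 0.043). CCNB1, cyclin B1, went from 8.32, 11.3 and 8.79 at E33 to 4.26, 2.71 and 1.23 at E95 and fell by 1.56 ± 0.24 (adjusted p = 9.6e-05). ESPL1, the separase that cuts cohesin, fell by 1.61 ± 0.18 (adjusted p = 3.5e-06) and GTSE1 by 1.31 ± 0.16 (adjusted p = 9.4e-06). CDK1, the kinase that cyclin B activates, changed least, at a low level. CDK1 was at 1.30, 1.21 and 1.09 at E33 and at 0.780, 0.336 and 0.430 at E95. The 2 groups of CDK1 libraries do not overlap, and the fall of 0.55 ± 0.16 (adjusted p = 0.01) was not called with quantile normalization (adjusted p = 0.0998).

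Of the 7 symbol-matched mitotic kinases and checkpoint genes, 6 fell, with a median of -0.996 over the 7. AURKB, the kinase of the chromosomal passenger complex, had the highest level, with 19.3, 16.2 and 18.7 at E33, 21.4, 19.5 and 19.4 at E50 and 10.7, 15.0 and 9.88 at E95. AURKB fell by 0.59 ± 0.16 (adjusted p = 0.00847) without overlap between E33 and E95. PLK1, which drives mitotic entry and centrosome maturation, fell most, from 13.9, 11.5 and 13.2 at E33 to 3.55, 4.33 and 3.99 at E95. The fall of PLK1 was 1.48 ± 0.26 (adjusted p = 0.000331). BIRC5, survivin, which works with AURKB, fell by 0.996 ± 0.20 (adjusted p = 0.000876). The checkpoint kinases BUB1, BUB1B and TTK, which hold anaphase until chromosomes are attached, fell by 1.08, 1.11 and 0.78. MAD2L1, a checkpoint protein that inhibits CDC20, did not follow them. MAD2L1 was at 1.29, 2.01 and 1.16 at E33 and at 1.62, 2.02 and 0.840 at E95. These scaled values overlap between the stages, and the difference was -0.01 ± 0.26 (adjusted p = 0.983). In TPM as deposited the E33 and E95 libraries of MAD2L1 did not overlap. There all 7 symbol-matched genes of the group lay at -0.807 or below, where the median of all genes was -1.02. AURKA, placed by position, is the kinase of the spindle poles and fell from 3.43, 4.20 and 4.53 at E33 to 1.01, 1.77 and 1.04 at E95 (1.16 ± 0.20, adjusted p = 0.000275).

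All 4 symbol-matched genes for chromosome and centromere proteins fell, with a median of -1.45. MKI67, the source of the Ki-67 antigen that coats mitotic chromosomes, was placed by position and had the highest level of all members. MKI67 was at 87.1, 75.8 and 98.8 at E33, 69.3, 105 and 71.5 at E40, and 66.7, 65.7 and 113 at E50. It was then at 54.9, 70.8 and 78.8 (E60), 52.1, 51.4 and 59.1 (E70) and 38.8, 35.4 and 32.8 (E95). The high values at E40 and E50 are the 2 libraries with the lowest scaling factors, and MKI67 fell by 1.26 ± 0.21 between E33 and E95 (adjusted p = 0.000193). TOP2A, the topoisomerase that untangles DNA before segregation, was at 36.2, 37.5 and 28.7 at E33, at 33.8, 41.2 and 37.0 at E40, at 20.5, 22.4 and 21.0 at E70 and at 11.7, 12.8 and 12 at E95. TOP2A fell by 1.40 ± 0.11 (adjusted p = 1.5e-07), and the E50, E60, E70 and E95 libraries are in descending order without overlap. CENPF, a kinetochore protein, fell most of the group, from 19.2, 24.3 and 20.9 at E33 to 6.19, 5.50 and 5.87 at E95 (1.71 ± 0.12, adjusted p = 3.3e-08). CENPE, a kinetochore motor, fell least. CENPE was at 5.02, 4.58 and 4.46 at E33, at 6.40, 7.04 and 6.59 at E40 and at 2.29, 2.47 and 2.51 at E95, so that it was above its E33 level at E40 and fell by 0.73 ± 0.12 by E95 (adjusted p = 0.000123). CENPA, the histone of the centromere, fell by 1.49 ± 0.31 (adjusted p = 0.00113).

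Of the 8 genes for spindle motors, spindle assembly and cytokinesis, 7 fell. KIF20A, a motor of the midzone that cytokinesis needs, had both the highest level and the largest fall. KIF20A was at 30.9, 29.7 and 33.8 at E33, at 23.3, 29.4 and 29.9 at E50, at 14.8, 12.9 and 16.1 at E70 and at 9.08, 6.82 and 8.29 at E95. It fell by 1.85 ± 0.14 (adjusted p = 9.7e-08), with no overlap between E50, E70 and E95. KIF2C, which takes microtubules apart at centromeres, fell by 1.67 ± 0.16 (adjusted p = 1.1e-06) and PRC1, which bundles midzone microtubules, by 1.35 ± 0.15 (adjusted p = 4.0e-06). KIF23, TPX2, KIF11 and ANLN fell by 1.13, 0.90, 0.86 and 0.85. NUSAP1, which binds spindle microtubules, stood apart from the group. NUSAP1 was at 7.88, 7.78 and 6.54 at E33, at 9.50, 9.19 and 10.1 at E40, at 7.38, 7.81 and 7.88 at E70 and at 8.11, 9.63 and 8.47 at E95. Its E95 libraries lie above those of E33, with a difference of 0.21 ± 0.09 that was not called (adjusted p = 0.0617). It was called higher without E95 replicate 1 (0.26, adjusted p = 0.047), and called lower with the 2 most abundant genes taken out before rescaling (-0.41, adjusted p = 0.0155). In TPM as deposited NUSAP1 had the opposite sign, without overlap between E33 and E95, and was not called. There all 8 genes of the group lay at -0.927 or below, where the median of all genes was -1.02. The RefSeq span of NUSAP1 overlaps OIP5 and NDUFAF1, both on the opposite strand, and whether the reads were counted by strand is not given in the sources used here.

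**Figure D2:**
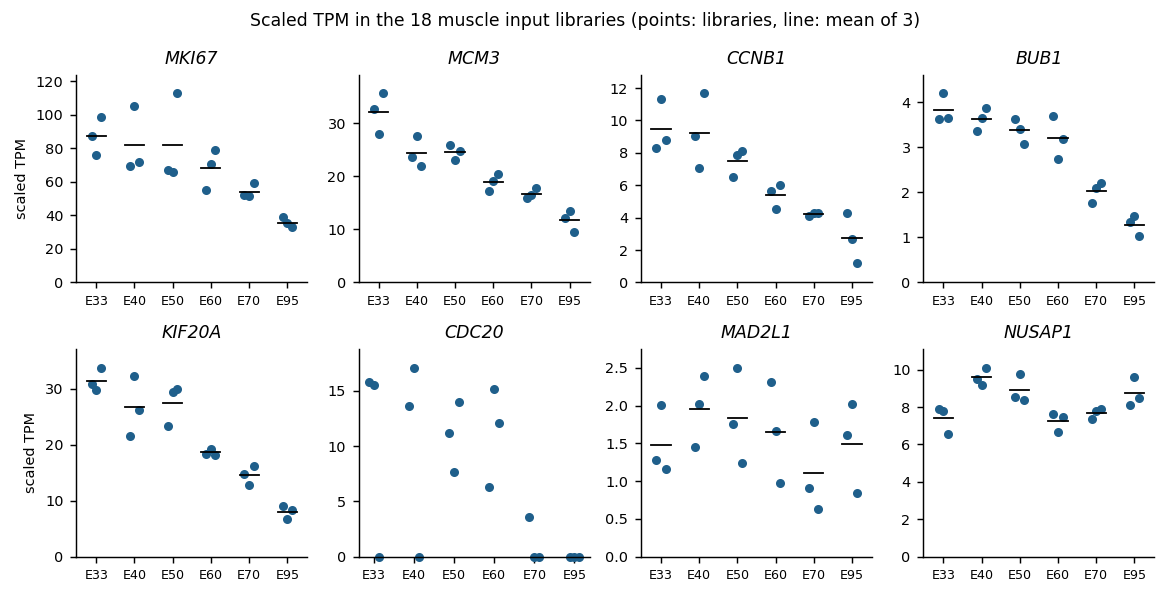
Scaled TPM (vertical axis, starting at 0) of 8 genes in the 18 muscle input libraries by stage, with 1 point per library and a line at the mean of 3 (no line for CDC20, which is listed at 0 in 7 libraries). MKI67, MCM3, CCNB1, BUB1 and KIF20A have their lowest points at E95, while the E33 and E95 points of MAD2L1 overlap and those of NUSAP1 lie at 6.54 to 7.88 and 8.11 to 9.63.

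Step by step, the fall was smallest early and largest between E70 and E95, the step that is also the longest in days. The steps differ in length, and changes per day were not computed. From E33 to E40, 2 members were called lower (MCM3 by 0.38 and MCM5 by 0.74) and 2 higher (CENPE by 0.43 and NUSAP1 by 0.34), which are shares of 5.56% each against 10.7% of all genes lower and 10% higher. As deposited, CENPE (-0.17) and NUSAP1 (-0.30) had the opposite sign in this step, and 0 members were called (9 were lower and 0 higher at an unadjusted p under 0.05). Single libraries decided these counts: 0 were called lower without E33 replicate 1, E33 replicate 3, E40 replicate 1 or E40 replicate 3, and 3 without E40 replicate 2. The members called higher were 0 without E33 replicate 3, 1 without E40 replicate 3 and 3 without E33 replicate 2. From E40 to E50, 0 members were called lower (0.526% of all genes) or higher (0.99%), and at an unadjusted p under 0.05 there were 7 lower and 1 higher. From E50 to E60, 0 were called lower (0.274% of all genes) or higher (0.548%), with 8 lower and 0 higher at an unadjusted p under 0.05. From E60 to E70, BUB1 was called lower (by 0.48) and 0 members higher, against 0.564% and 1.19% of all genes. The call of BUB1 was lost when any library of those stages but E60 replicate 2 was left out (adjusted p of 0.0735 to 0.163). The median changes of the members in these 4 steps were 0.00, -0.17, -0.16 and -0.18.

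From E70 to E95, 19 of the 36 members fell (52.8%) and 0 rose, with a median of -0.55, where 6.76% of all genes fell and 7.0% rose. Among the symbol-matched members, the 19 comprised all 4 chromosome and centromere genes and 7 of the 8 spindle and cytokinesis genes. MKI67, placed by position in the chromosome and centromere group, was not called in this step, and neither were RRM2 and AURKA. These genes placed by position were not called in the earlier steps either. In the other groups they were 1 of 4 G1/S genes, 2 of 7 replication genes, 3 of 6 cyclins and regulators and 2 of 7 kinases and checkpoint genes. The difference between these shares was not tested. TOP2A fell by 0.76, CENPF by 0.77, PRC1 by 0.80 and GTSE1 by 0.91, while MCM5, MCM6 and MCM7 changed by -0.07, -0.14 and -0.10 with adjusted p of 0.593 or more. In TPM as deposited the step to E95 gave 0 members lower and 0 higher, where 0.21% and 0.075% of all genes were called, and 17 members were lower at an unadjusted p under 0.05. The medians on that scale were -0.87 for the members and -0.41 for all genes. With just the E70 and E95 libraries in the fit, 9 members were called lower.

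**Figure D3:**
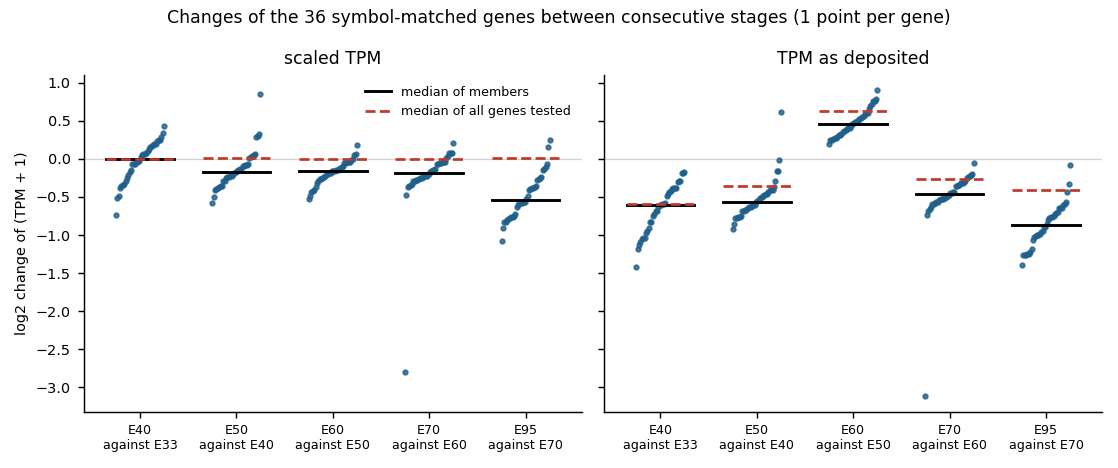
Log2 change of TPM + 1 (vertical axis) of the 36 symbol-matched genes in the 5 steps between consecutive stages, 1 point per gene, for scaled TPM (left) and TPM as deposited (right). Solid lines are medians of the 36 genes and dashed lines medians of all genes tested, and the gap between them is widest from E70 to E95 (-0.55 against 0.01 scaled, -0.87 against -0.41 as deposited). That step is also the longest in days. The point near -2.8 from E60 to E70 is CDC20.

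Many members, but not all, ran closely together across libraries. The correlation of a member with the mean of the others over the 18 libraries, which share stages and scaling, was 0.98 for CENPF, 0.98 for TOP2A, 0.96 for BUB1B and 0.96 for KIF20A. It was 0.61 for MCM7, 0.58 for CDT1, 0.55 for MCM5, 0.26 for MAD2L1 and -0.01 for NUSAP1. The share of all genes reaching such values was not computed, so they do not set the members apart. The 10 genes outside the list most like the mean pattern of the members were ASPM (r = 0.98), KIF15 (0.98), LMNB1 (0.98), CIT (0.97), PAK3 (0.96), GIT2 (0.96), PTK7 (0.96), SEPTIN11 (0.96), CPAMD8 (0.96) and AGPAT4 (0.96), over the same 18 libraries. ASPM and KIF15 belong to the further mitosis genes described next.

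Other genes of the pathway were taken from lists of known cell cycle genes. Of 24 tested G1 cyclins, CDKs, RB and E2F family genes, FOXM1 and MYBL2, 10 fell and 4 rose between E33 and E95, with a median of -0.40. MYBL2, a partner of the MuvB complex at mitotic genes, fell by 1.23 ± 0.11 (adjusted p = 5.6e-07), from 18.1, 19.1 and 20.9 to 7.86, 8.46 and 6.74. FOXM1, which follows MYBL2 at those promoters, fell by 1.09 ± 0.12 (adjusted p = 2.6e-06). CCND3, a cyclin D, rose by 0.72 ± 0.17 (adjusted p = 0.00293) and RBL2, the p130 protein of the DREAM complex, by 0.67 ± 0.12 (adjusted p = 0.000365), but in TPM as deposited both were lower at E95 (-0.52 and -0.41, neither called). Of the 5 CDK inhibitors tested, 0 fell and 2 rose. Over all genes tested, 22.6% were called lower and 24.0% higher, and neither these lists nor those below were tested against these shares. CDKN2C, which inhibits CDK4 and CDK6, went from 2.77, 2.55 and 3.42 at E33 to 10.4, 15.4 and 5.32 at E95 (1.44 ± 0.28, adjusted p = 0.000706). CDKN1B, p27, went from 23.5, 32.1 and 27.1 to 70.4, 74.7 and 56.4 (1.25 ± 0.16, adjusted p = 1.4e-05). As deposited, CDKN2C changed by 0.37 and CDKN1B by 0.00, and neither was called.

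Of 36 further replication genes tested, 22 fell and 0 rose, with a median of -0.57. UHRF1, which keeps DNA methylation through replication, fell by 1.93 ± 0.16 (adjusted p = 1.6e-07), from 44.0, 38.3 and 45.7 to 11, 11 and 9.28, and POLE, a replicative polymerase, by 1.65 ± 0.11 (adjusted p = 3.3e-08). Of 35 further mitosis genes tested, 28 fell and 1 rose, with a median of -0.71. CKAP2, a spindle protein, had the largest difference of these, from 3.84, 4.32 and 4.35 at E33 to 0.000168, 0.000129 and 0.000113 at E95 (-2.37 ± 0.39, adjusted p = 0.000166). Values so near 0 can be failed estimates, as can the listed 0 of CDC20, and this was not tested. ZWINT, a kinetochore protein, fell by 1.85 ± 0.20 (adjusted p = 3.5e-06). The gene that rose was NCAPD2, a condensin subunit, by 0.68 ± 0.11 (adjusted p = 0.000122). As deposited it was lower at E95, by -0.57 and not called. In TPM as deposited the 4 lists had 19 of 25, 0 of 5, 30 of 36 and 35 of 38 genes lower and 0 higher. On that scale 45.8% of all genes were called lower and 2.64% higher.

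The deposited m6A peaks show which member transcripts the antibody enriched. There is 1 list per stage and per PK15 preparation, so they carry no replicate error, and the fold enrichment of a peak is the authors' value. Of the 36 members, 13 had a peak in the E33 list (36.1%), 9 in that of E40 (25%), 8 in E50 (22.2%), 7 in E60 (19.4%), 8 in E70 (22.2%) and 9 in E95 (25%). Among all genes of at least 1 TPM at the stage the shares were 33.5%, 22.9%, 32.6%, 31.7%, 35.6% and 37.5%. Members under the same limit (36, 36, 35, 36, 35 and 28 genes) had shares of 36.1%, 25%, 22.9%, 19.4%, 22.9% and 25%. By this measure the members' share was near the background at E33 and E40 and below it at later stages. Among all genes in the files, whatever their level, the shares were 21.2%, 13.5%, 18.4%, 19%, 20.9% and 20.4%. The share of the 36 members was above these at E33 and E40 and nearer to them later, with 19.4% against 19% at E60. How the members compare thus depends on the genes they are set against, and no test was made. In PK15 cells, 26 members (72.2%) had a peak in polyA RNA and 17 (47.2%) in rRNA-depleted RNA, against 37.7% and 23.7% of all genes in the files. PK15 expression was not analysed here, so this share could not be set against genes of like level.

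MCM2, MCM3, TOP2A, CENPF, TPX2 and, placed by position, MKI67 had a peak in all 6 stages and both PK15 lists. A stage peak was listed for 14 members, each of which also had one in PK15, and for 13 of the 14 it lay inside the RefSeq gene. Another 13 had a peak in PK15 and in no stage, among them CDT1, CCNE2, MCM6, MCM7, BIRC5, CENPA, BUB1 and KIF2C. The remaining 9, E2F1, CDC6, MCM5, TYMS, CDK1, CCNB1, PLK1, AURKB and MAD2L1, had none in any list. The mean levels of these 9 ran from 1.04 (CDK1) to 16.3 scaled TPM (AURKB). ESPL1 had peaks at E33, E50 and E95, CENPE at E33, E40 and E70, and BUB1B at E33, E40 and E50. The median fold of the 36 members' peaks was below that of the whole list at each stage (2.99 to 4.15 against 3.51 to 4.88). These medians are over peaks, and CENPF alone gave 15 of 30 at E33 and 12 of 21 at E50. By gene, 7 of the 13 members with an E33 peak had one above the median of that list, and 1 of 9 at E40. MKI67 is not included, and its highest folds were 6.26 to 10.1 per stage list.

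**Figure D4:**
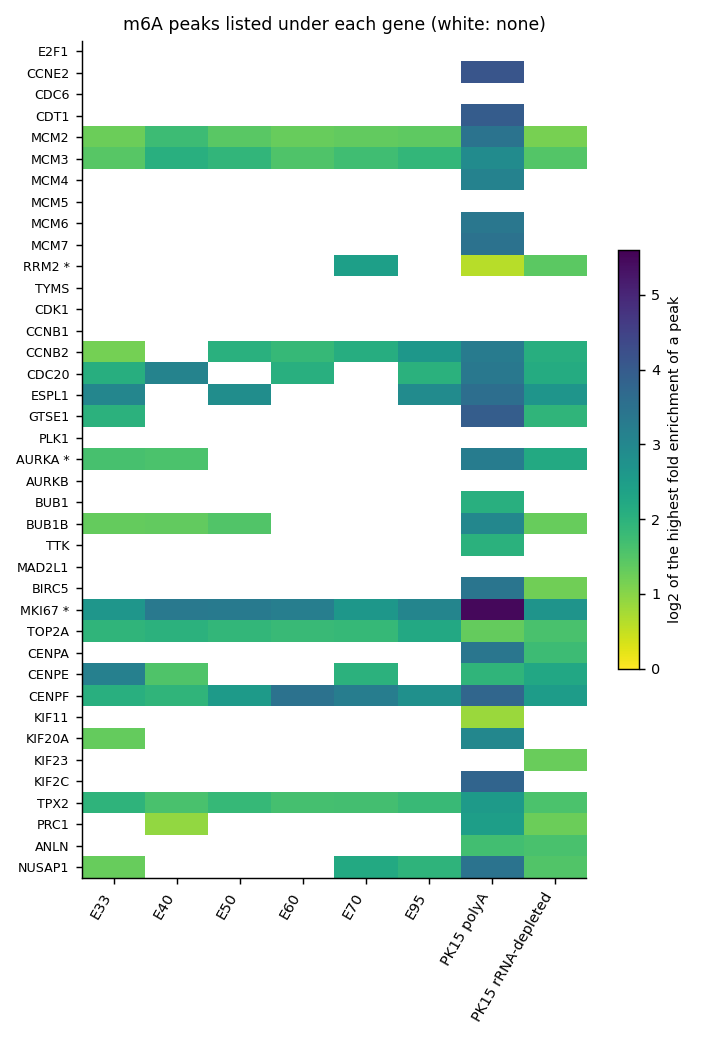
Highest fold enrichment (log2 colour scale) of an m6A peak listed under each of the 39 matched genes in the 6 stage lists and 2 PK15 lists. White means no peak and an asterisk marks genes placed by position. MCM2, MCM3, TOP2A, TPX2, CENPF and MKI67 are filled in all 8 columns, and the polyA column of PK15 has the most filled cells (26 of the 36 symbol-matched genes).

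Some listed peaks lie at a neighbour of the member or outside its RefSeq transcript. The stage peaks of CDC20 (chr6:167885712-167885772 at E33) lie outside the RefSeq span of CDC20, within that of ELOVL1 on the other strand. The E70 and E95 peaks of NUSAP1 (chr1:130053354-130053563 at E70) lie inside its own gene but outside the RefSeq transcript used. They also lie in the span of OIP5 on the other strand. The stage peaks of CCNB2 (chr1:112907256-112907434 at E50) lie inside its gene and outside the RefSeq transcript used. When a peak had to overlap a RefSeq exon of the member, the stage counts were 11, 8, 7, 5, 6 and 6 of 36.

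Sequences around peaks of 5 of the 6 genes with a peak at every stage are shown, because they hold the context in which m6A is usually written. TPX2, the other of the 6, is not shown: its main peak held 1 match at E33, E40 and E50, with surrounding bases that cross an exon boundary, and none at E60, E70 and E95. Each run is 25 bases of the gene's strand (Sscrofa11.1), with capitals on the match to DRACH, the usual context of m6A, nearest the midpoint of a peak. MCM2 is at chr13:72644430-72644454 (minus strand, exon 3 of 16, coding), nearest the midpoint in all 8 lists. MCM3 is at chr7:46088390-46088414 (minus strand, exon 14 of 17, coding), nearest at E33 and E50, and its second run at chr7:46085751-46085775 (exon 17, after the stop codon) at E33, E50 and E60. TOP2A is at chr12:22021841-22021865 (plus strand, exon 28 of 35, coding), nearest from E40 to E95. CENPF is at chr9:128971752-128971776 (minus strand, exon 14 of 22, coding) and MKI67 at chr14:137275932-137275956 (minus strand, exon 13 of 15, coding), each from the E95 peak of highest fold (6.86 and 8.34).
MCM2: gtggaggagcTGACCgccagtcaga
MCM3: gaaatgaggaTGACTcggagacaga
MCM3, after the stop: agcggagtcaGGACTccatggaagc
TOP2A: atcccccgagTGACTgtagagatga
CENPF: aggtgaccgaTAACTggggagagag
MKI67: ggacggctcaAGACCccttcccaga

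MCM2 carried a single peak in each list, at the same place, with folds of 2.38, 3.37, 2.72, 2.48, 2.56 and 2.62 from E33 to E95, 2.23 in PK15 rRNA-depleted RNA and 11 in PK15 polyA RNA. That place is in the first part of the coding sequence, with midpoints at -2362 to -2302 bases from the stop codon in the stage lists. MCM3 carried a peak in exon 14 at all 6 stages (folds of 2.13 to 4.16) and a second one within 200 bases of the stop codon at E33, E50, E60 and E70 (2.71 to 3.77). TOP2A had its peak in the last part of the coding sequence around exons 28 and 29 of 35, with main folds of 3.48 to 4.67 over the stages. TPX2 had one around exons 8 and 9 of 19 at each stage (3.07 to 3.88). Over the 175 stage peaks of the matched members, 169 held at least 1 match. The share among stretches of like length outside peaks was not tested, so this count does not set the peaks apart from other sequence.

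CENPF and MKI67 carried many peaks each. CENPF had 15, 9, 12, 6, 9 and 3 in the 6 lists from E33 to E95, with 15 of these 54 in exon 13 (2639 bases), 11 in exon 14 (1561 bases) and 8 in exon 15 (1184 bases). MKI67 had 9, 10, 9, 11, 12 and 10 from E33 to E95, and 48 of them lay in exon 13, which is 6740 bases long. The level of CENPF at E95 was 27.2% of that at E33, and that of MKI67 40.9%. Whether fewer called peaks of CENPF follow from its lower input level was not tested.

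Of the 100 stage peaks of the 36 members that could be placed on their RefSeq transcript, 95.0% had their midpoint in the coding sequence and 5.0% within 200 bases of the stop codon. Over 33968 peaks of all coding genes, 65.6% lay in the coding sequence, 21.1% near the stop codon, 10.1% in the 3' UTR and 3.23% in the 5' UTR. CENPF gave 54 of the 100, and without it 41 of 46 (89.1%) were coding. A site with a peak in several stage lists is counted each time, so these peaks are not independent. MCM2 gave 6 of the 46, all in exon 3, and MCM3 gave 6 in exon 14. AURKA and RRM2, placed by position, had their stage peaks near the stop codon (folds of 3.08 and 3.00 for AURKA at E33 and E40, and 5.42 for RRM2 at E70). In the PK15 polyA list, 13 of the 54 member peaks were in the 5' UTR, where the PK15 rRNA-depleted list had 0 of 44 and the stage lists, also of rRNA-depleted RNA, 0 of 111. The 5' UTR share over all peaks of the PK15 lists was not computed, so these counts do not set the members apart from other genes.

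**Figure D5:**
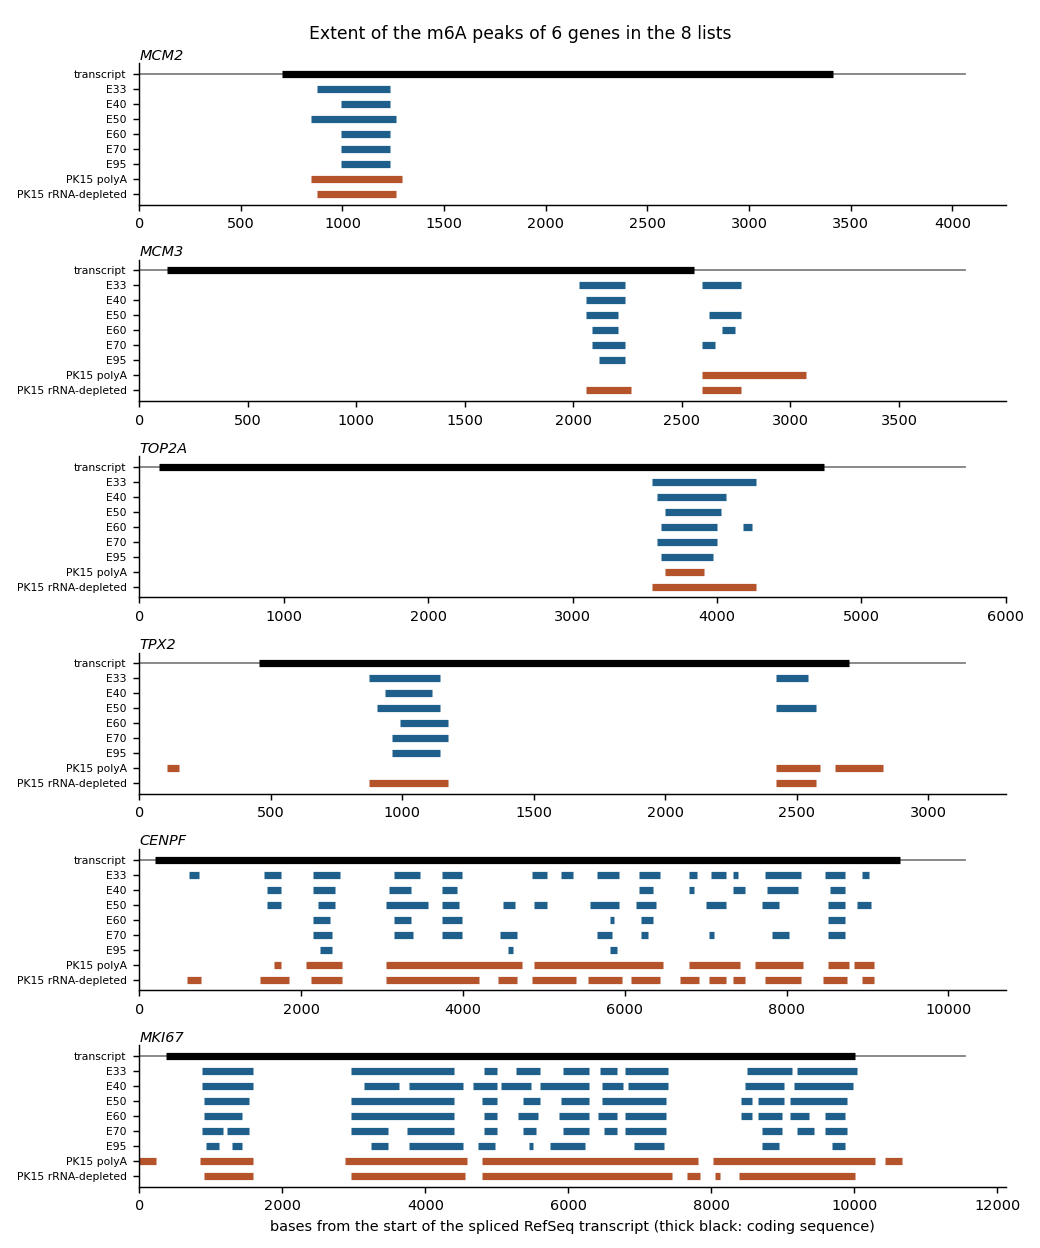
Extent of the m6A peaks along the spliced RefSeq transcripts of 6 genes (horizontal axis: bases from the transcript start; 1 row per list; blue, muscle stages; brown, PK15). The black bar is the coding sequence. The bars of MCM2, and of TOP2A but for a second peak at E60, overlap in all 8 lists, while CENPF goes from 15 peaks at E33 to 3 at E95 and MKI67 keeps 9 to 12 at each stage.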

How the data were processed

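Per the file headers, the authors deposited TPM for each of the 18 muscle input libraries (Ensembl genes, a sum of 1000000 per library), and 1 list of m6A peaks per stage and PK15 preparation, with a fold enrichment (ratio) and a p-value per peak, which the text does not print. Whether replicates were pooled for peak calling is not given in the sources used here. The submitters' processing notes name Trimmomatic, HISAT2 and Sscrofa11.1.

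TPM were divided by median-ratio factors over 14215 genes above 0 in every library. Log2(scaled TPM + 1) was fitted, for genes averaging 1 or more, with limma 3.58.1 in R 4.3.3, with 1 mean per stage over 18 libraries (12 residual degrees of freedom), eBayes along the mean trend and two-sided tests, tested on simulated data. The threshold for a call was 0.05 after Benjamini-Hochberg adjustment over the genes fitted. Peaks, DRACH matches and promoters were read with pysam 0.24.0 from RefSeq annotation of Sscrofa11.1, and 1 duplicate peak entry was dropped.

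Members, roles, pathway lists and markers were chosen with earlier results of these data known. Library values are given, per role group, for the member with the highest level and those with the largest and smallest falls; values of other members were added after they were seen. Pathway genes named are the 2 largest changes called in each direction. Alternatives were other scalings, pseudocount 0.1, no filter, a replicate block, leaving out libraries, 2-stage fits, stricter peaks, exon overlap and shorter promoters. Scaling on genes of at least 1 TPM in all libraries was added after seeing the data.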

Additional observations from a re-analysis of the deposited data

How the results depend on the processing

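Of 1108 alternative values of 74 gene changes, 993 kept their side of the threshold. Another 104 kept the direction and lost the call, 5 gained it and 6 reversed. A change of sign was counted as a reversal only for a gene called in at least 1 of the fits compared. The count of members lower at E95 than at E33 (33) stayed within 1.5 times of that in every alternative run, and ran from 30 to 33 when single libraries were left out. The cause of the changes that follow was not tested. In TPM as deposited, 0 members were lower from E33 to E40, 0 higher, 0 lower from E60 to E70 and 0 lower from E70 to E95. With the 2 most abundant genes taken out before rescaling, 0 were higher from E33 to E40 and 1 lower from E40 to E50. With quantile normalization 1 member was lower from E33 to E40, and without E40 replicate 2 and E50 replicate 3 there were 4. With scaling factors from genes of at least 1 TPM in all libraries, 1 was lower from E40 to E50. With the 2 stages compared alone in the fit, 1 was higher from E33 to E40, 0 lower from E60 to E70 and 9 of the 33 members then tested lower from E70 to E95. Leaving out 1 library gave 29 to 33 members by the F test, 0 to 1 higher from E33 to E95, 0 to 3 lower and 0 to 3 higher from E33 to E40, 0 to 2 lower and 0 to 1 higher from E40 to E50, 0 to 2 lower from E50 to E60, 0 to 1 lower from E60 to E70 and 13 to 19 lower from E70 to E95. With peaks above the median fold of their list, 7, 1, 2, 2, 3 and 4 members had one from E33 to E95 and 5 in rRNA-depleted PK15 RNA. With the bases before the start alone, promoter shares were 21.4% for TTTGAA, 50% for the CCAAT box, 23.8% for CHR with CCAAT box and 11.9% for TTTGAA with CCAAT box.

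Values that reversed in TPM as deposited were CCND3 (-0.52), RBL2 (-0.41) and NCAPD2 (-0.57) from E33 to E95, and CENPE (-0.17) and NUSAP1 (-0.30) from E33 to E40. NUSAP1 reversed from E33 to E95 with the 2 most abundant genes taken out (-0.41). As deposited NUSAP1 also changed sign over that interval, but it was called on neither scale and is not among the 6 reversals. The replicate block gave 34 members lower at E95 than at E33, 1 lower from E33 to E40 and 0 lower from E60 to E70. Input libraries of the same number had r of -0.123 to 0.102 over 45 pairs, and those of other numbers -0.136 to 0.111 over 90 pairs. The ranges overlap, so these values show no pairing by number and cannot exclude one. Depth cannot be read from TPM, and 12 members average under 5 scaled TPM, where small changes may not be detectable.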
